A study of Homo sapiens with 6 samples.

Results

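Glutathione, the main small thiol antioxidant of cells, is built in 2 steps from glutamate, cysteine and glycine. Glutamate-cysteine ligase joins the first pair, with GCLC as its catalytic subunit, and glutathione synthetase, encoded by GSS, adds glycine. LAP3 is a cytosolic leucine aminopeptidase that also splits cysteinylglycine, a product of glutathione breakdown, into its amino acids, and SLC7A2 is a plasma membrane carrier that brings in arginine, lysine and ornithine. The features described here are 5 rows of these 4 genes. GCLC, LAP3 and SLC7A2 are among the 99 analysed genes with FPKM values. The GSS transcripts ENST00000642498 and ENST00000645723 are among the 99 analysed transcripts of the transcript count table. These 5 features were chosen by name, with earlier results of these data known. They are 5 of the 396 features analysed over all 4 tables.

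The libraries came from LNCaP-AI, a castration-resistant derivative of the LNCaP prostate cancer line. The cells had received either a control vector (control, 3 libraries) or the construct sh_0092339 against the circular RNA hsa_circ_0092339 (knockdown, 3 libraries). All knockdown libraries carry the same construct name and all libraries the same cell line, so the results describe 1 construct in 1 line. Separate cultures are not stated in the labels, so p-values measure the spread between these libraries, which may be technical.

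The libraries held 53127020 to 80559726 mapped fragments, as recovered from the authors' FPKM values. The circular RNA itself was not analysed here, so the knockdown was not checked, and 0 of 27 listed cell type markers were among the analysed features. In bulk RNA a lower level can reflect fewer cells expressing a gene or less of its RNA per cell, which cannot be told apart. In the gene FPKM table limma called 31.4% of the 70 genes with a mean of at least 1 FPKM at an adjusted p under 0.05 (14 rose, 8 fell), and the groups did not overlap for 52.9%.

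GCLC and LAP3, which the authors' deposited table assigns to the glutathione metabolism map, both rose in the knockdown libraries, to 1.37 and 1.24 times the control mean. SLC7A2 averaged 2.03 times the control mean and did not pass the test; its controls spanned 4.62-fold. Neither GSS transcript passed the test, and libraries of 1 group differed by more than the group means.

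GCLC (ENSG00000001084, chr6:53497341-53616970, minus strand) is a protein-coding gene with 14 transcripts in the table. In FPKM, a level scaled to gene length and to the mapped fragments of the library, it stood at 4.31, 4.33 and 3.68 in controls 1 to 3 and at 5.47, 5.64 and 5.76 in knockdown 1 to 3. All 3 knockdown libraries lay above all 3 controls, and control 3 was the lowest of the 6. The means were 4.11 ± 0.368 and 5.62 ± 0.142 FPKM (SD, n = 3 each), a ratio of 1.37. Tested as log2(FPKM + 1), a scale on which changes of weakly expressed genes look smaller, GCLC had a log2 fold change of 0.38 ± 0.0660 (SE; 95% interval 0.22 to 0.54; limma, adjusted p = 0.00837). The values rested on 2164 to 2195 counts in the controls and 2512 to 3919 in the knockdown libraries. The call was kept in all 13 alternatives, with an adjusted p between 0.00851 and 0.0419.

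LAP3 (ENSG00000002549, chr4:17577192-17607968, plus strand) had 11 transcripts in the table and a higher level per length. It stood at 19.2, 20.5 and 18.3 FPKM in the controls and at 23.2, 24.8 and 23.7 FPKM in the knockdown libraries. Again no control reached the lowest knockdown library. The means were 19.3 ± 1.13 and 23.9 ± 0.792 FPKM (SD, n = 3 each), a ratio of 1.24, and the log2 fold change was 0.29 ± 0.0602 (SE; 95% interval 0.15 to 0.44; limma, adjusted p = 0.0134). The call was lost with quantile normalization, where the log2 fold change was 0.098 (adjusted p = 0.206), and was kept in the other 12 alternatives. Counts were 4220 to 4774 in the controls and 4678 to 7558 in the knockdown libraries, so the unscaled counts of the groups overlapped and their separation in FPKM rests on the scaling for depth.

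SLC7A2 (ENSG00000003989, chr8:17497088-17570566, plus strand) is listed with 6 transcripts. It stood at 4.40, 0.954 and 2.93 FPKM in the controls and at 6.02, 5.53 and 5.25 FPKM in the knockdown libraries. The knockdown libraries lay close together, while the highest control was 4.62 times the lowest. Control 2, the lowest, rested on 444 counts, against 2023 in control 1 and 1601 in control 3. The means were 2.76 ± 1.73 and 5.60 ± 0.386 FPKM (SD, n = 3 each), a ratio of 2.03. The log2 fold change of 0.93 ± 0.343 (SE; 95% interval 0.11 to 1.75) was the highest of the 70 tested genes, but its adjusted p of 0.0748 missed the threshold (limma; unadjusted p = 0.0320).

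**Figure D1:**
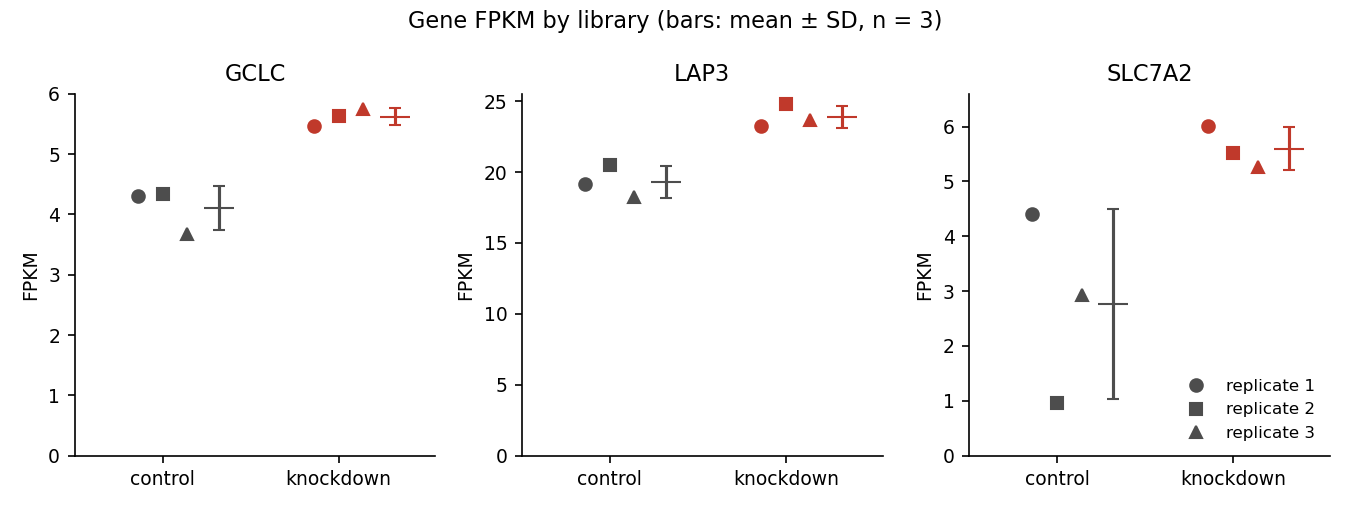
FPKM of GCLC, LAP3 and SLC7A2 in each library (vertical axes start at 0; markers give the replicate number, horizontal bars the mean and vertical bars the SD of 3 libraries; grey control, red knockdown). The groups do not overlap for any of the 3 genes, and the SLC7A2 controls run from 0.954 to 4.40 FPKM. Of the 70 tested genes, 52.9% do not overlap, 31.4% with the knockdown higher.

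Among the controls, control 2 stood apart for SLC7A2. The coefficient of variation of SLC7A2 in the controls was 62.6%, the second highest of the 70 tested genes, whose median was 7.23%. In the knockdown libraries it was 6.90%, close to the median of 6.91% there. Control 2 was set against the mean of the other controls, with 1 FPKM added to both values. On this scale, which shrinks differences of weakly expressed genes, SLC7A2 had a log2 difference of -1.26, the lowest of the 70 genes. The next gene was CIAPIN1 at -0.28, and the median over the 70 genes was 0.043, so control 2 was not low in general.

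Each of controls 1 and 2 decided whether SLC7A2 was called. Without control 2 the log2 fold change fell to 0.52 ± 0.142 (limma, adjusted p = 0.0460). Without control 1 it was 1.25 ± 0.275 (limma, adjusted p = 0.0264). Median centring also gave a call, at 1.01 ± 0.342 (limma, adjusted p = 0.0460), whereas edgeR's quasi-likelihood test on the counts of the same table gave 0.98 ± 0.495 (adjusted p = 0.150). The sign was positive in all 13 alternatives.

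**Figure D2:**
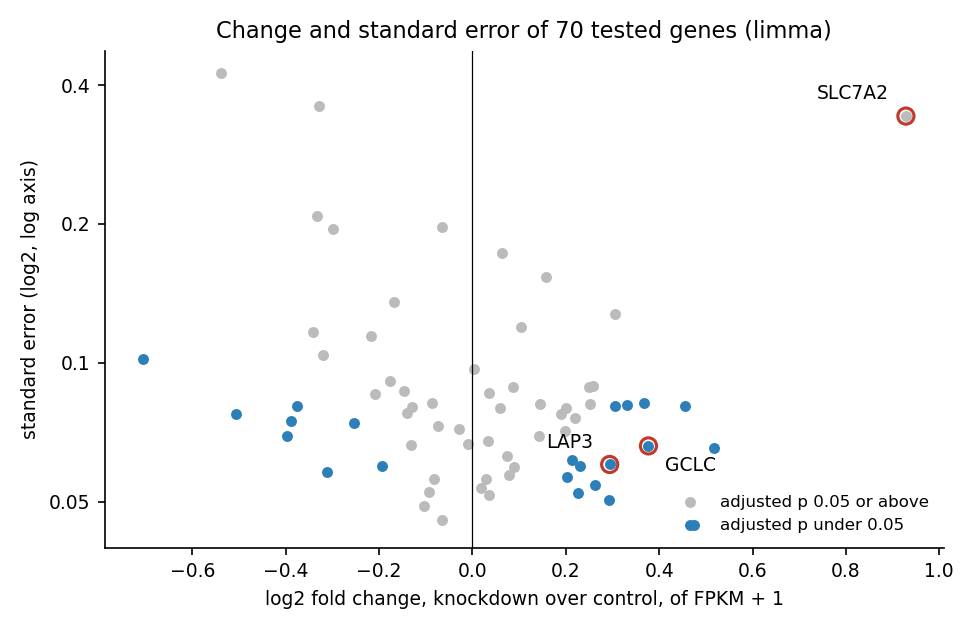
Log2 fold change (horizontal axis, log2 of FPKM + 1, knockdown over control) against its standard error (vertical axis, log scale) for the 70 tested genes, with called genes in blue and GCLC, LAP3 and SLC7A2 ringed. GCLC and LAP3 have small errors of 0.0660 and 0.0602, and SLC7A2 combines the highest log2 fold change with an error of 0.343.

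Ordered by signed log2 fold change from the largest rise to the largest fall, GCLC ranked 5 and LAP3 ranked 10 of the 70 genes; the median log2 fold change of all tested genes was 0.034. Of the 3 members 2 were called with higher knockdown levels, against 20% of the tested genes; 3 genes are too few to set these shares against each other. For each of the 3 genes the exact two-sided permutation test of the mean FPKM gave p = 0.1, the smallest that 3 against 3 libraries allow. Groups that did not overlap with the knockdown higher were found for 31.4% of the tested genes.

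Per length, LAP3 was the most abundant of the 3, ranking 14 of the 70 tested genes by mean FPKM, with GCLC at rank 45 and SLC7A2 at rank 50. GCLC and SLC7A2 did not differ beyond their spread in either group: 4.11 ± 0.368 against 2.76 ± 1.73 FPKM in the controls and 5.62 ± 0.142 against 5.60 ± 0.386 FPKM in the knockdown. The lengths behind these FPKM values, recovered from count, depth and FPKM, were 8634 bases for GCLC, 3788 for LAP3 and 7909 for SLC7A2. All annotated exons of each gene merged cover 8646, 3785 and 7905 bases in GENCODE 29, so the FPKM levels are per merged exon length.

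The ratio of GCLC to LAP3 FPKM within a library does not depend on any scaling between libraries. This ratio, chosen after the values were seen, was 0.225, 0.211 and 0.202 in the controls and 0.235, 0.228 and 0.243 in the knockdown libraries. The knockdown libraries were all higher, with control 1 just under knockdown 2. The means were 0.213 ± 0.0116 and 0.235 ± 0.00782 (SD, n = 3 each), and the exact two-sided permutation test gave p = 0.1, again the smallest possible. The ratios of GCLC and of LAP3 to SLC7A2 overlapped between the groups (exact two-sided permutation p = 0.3 each). How many other gene pairs separate the groups in this way was not examined.

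**Figure D3:**
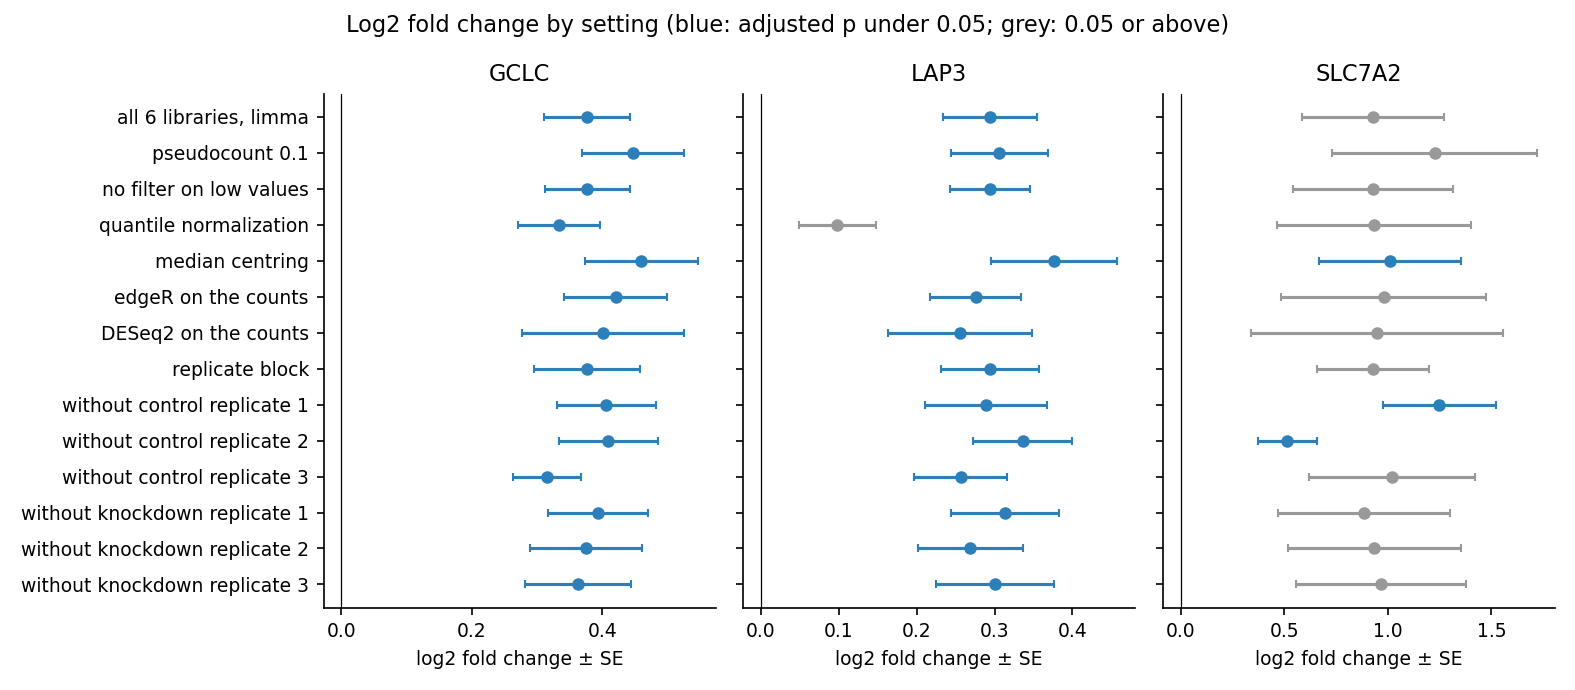
Log2 fold change with its standard error (horizontal axes, different ranges) of GCLC, LAP3 and SLC7A2 with all 6 libraries and in 13 alternatives (blue, adjusted p under 0.05; grey, 0.05 or above). GCLC was called in every setting shown, LAP3 in all but quantile normalization, and SLC7A2 in 3 of the alternatives, between 0.52 and 1.25.

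Other annotated genes overlap the members, and the sources used here do not give whether counting used strand. For LAP3, 1239 of 3785 exonic bases lie within the span of AC006160.1 on the opposite strand. For GCLC, 507 of 8646 exonic bases lie within AL033397.2 on the opposite strand and 529 within the lincRNA AL033397.1 on the same strand. These spans may include introns of the overlapping genes, and overlap with their exons was not checked. Reads there may therefore not all be assignable to either gene with certainty. No exonic base of SLC7A2 lies within another annotated gene.

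The start-site windows of GCLC and LAP3, the members that rose, are shown to set the same stretch of both genes side by side (RefSeq, GRCh38.p14, 250 bases before to 50 after the start, each on its gene's strand). The GCLC window is chr6:53545052-53545351 on the minus strand and the LAP3 window chr4:17576948-17577247 on the plus strand. Capitals mark CCAAT and TATAAA in GCLC and TGACGTCA in LAP3.
GCLC: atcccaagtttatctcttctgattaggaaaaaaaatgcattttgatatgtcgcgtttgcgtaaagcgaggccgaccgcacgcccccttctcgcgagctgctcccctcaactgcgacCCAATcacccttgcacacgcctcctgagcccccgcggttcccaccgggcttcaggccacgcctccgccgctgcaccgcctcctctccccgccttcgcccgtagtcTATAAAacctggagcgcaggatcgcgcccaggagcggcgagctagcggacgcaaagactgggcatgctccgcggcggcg
LAP3: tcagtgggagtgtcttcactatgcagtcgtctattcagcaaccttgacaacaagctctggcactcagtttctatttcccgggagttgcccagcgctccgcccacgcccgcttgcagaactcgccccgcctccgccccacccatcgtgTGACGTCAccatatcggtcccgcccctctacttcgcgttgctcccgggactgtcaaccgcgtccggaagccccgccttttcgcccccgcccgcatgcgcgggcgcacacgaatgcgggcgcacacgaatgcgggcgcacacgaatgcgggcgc
Both windows are rich in G and C, at 62.7% for GCLC and 65.0% for LAP3, against a median of 58.7% over 35116 windows. Of the motifs searched on both strands, 3 were listed before the windows were read: the antioxidant response element core TGACNNNGC, the amino acid response element TGATGNAA and the E-box CACGTG to which MYC can bind. None of the 3 had a match in either window. They occur in 13.3%, 3.62% and 7.26% of all windows. The capitals are 3 motifs added after reading the windows: the CCAAT box, found in 34.6% of all windows on either strand, starts 134 bases before the GCLC start. The TATA-box core TATAAA, in 11.5% of windows, starts 29 bases before the GCLC start, and the cyclic AMP response element TGACGTCA, in 1.85%, starts 103 bases before the LAP3 start. The matches do not overlap each other, and a match or its absence in a window says nothing of binding. The span of GCLC in the gene table reaches upstream of this RefSeq start. GSS was not matched in the table of windows.

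Among the features analysed here, GSS was represented only by single transcripts. GENCODE 29 annotates 28 transcripts of the gene on the minus strand of chromosome 20, of which 3 were analysed. ENST00000642498 (GSS-204, chr20:34928473-34955783) is protein-coding, with 13 exons and 2131 bases. ENST00000645723 (GSS-222, chr20:34928473-34955643) is a transcript with retained intron and no annotated coding sequence, with 12 exons and 3019 bases. The third, ENST00000642493, annotated for nonsense-mediated decay, is listed at a count of 0 in all 6 libraries.

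GSS-222 holds 2 blocks of bases outside GSS-204: it starts with 928 bases that lie in intron 1 of GSS-204, and it keeps intron 4 of GSS-204, of 303 bases (chr20:34942628-34942930). It lacks the first exon of GSS-204, and its last exon has 479 bases against 765. The junctions at that intron show what separates the transcripts, from the GENCODE 29 transcript sequences, with 30 bases on each side and bases of the intron in capitals.
GSS-204, exon 4 joined to exon 5: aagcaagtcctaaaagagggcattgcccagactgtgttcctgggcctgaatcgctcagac
GSS-222, exon 4 into intron 4: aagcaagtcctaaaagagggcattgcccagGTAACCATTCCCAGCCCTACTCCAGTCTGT
GSS-222, intron 4 into exon 5: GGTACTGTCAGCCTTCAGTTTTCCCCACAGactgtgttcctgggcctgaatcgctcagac
The intron begins with GT and ends with AG, and its flanks are identical to the joined exons of GSS-204. GSS-222 shares 1788 of its 3019 bases with GSS-204, and only 23 bases of GSS-204 and 8 of GSS-222 belong to no other annotated GSS transcript. Their counts are therefore mostly an assignment of shared reads by the authors' software, and the sources used here do not give its rules.

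**Figure D4:**
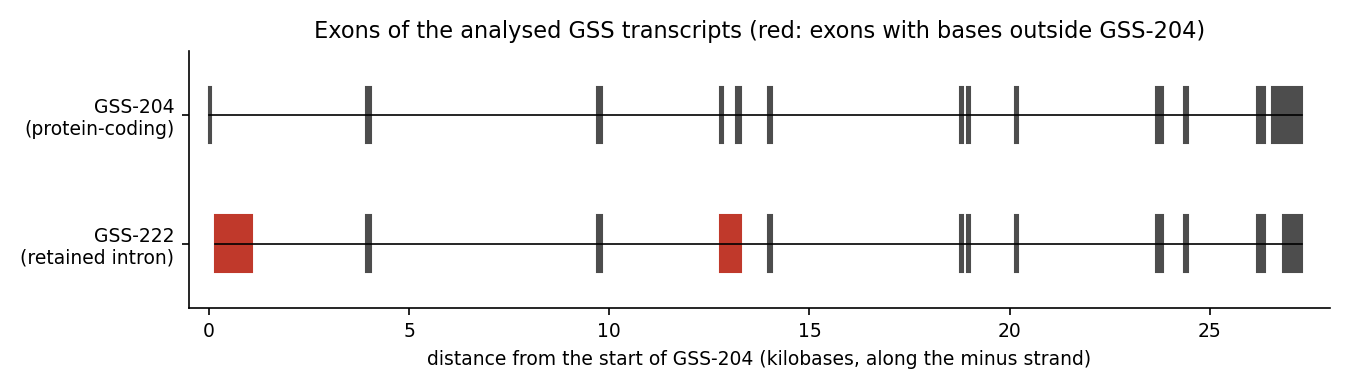
Exons (boxes) and introns (lines) of the analysed GSS transcripts in GENCODE 29, drawn to scale by distance from the GSS-204 start in kilobases. The red GSS-222 exons hold the bases outside GSS-204, namely 928 bases at the start and the retained intron of 303 bases.

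GSS-204 had 466, 548 and 1406 counts in the controls and 246, 962 and 421 in the knockdown libraries. In CPM, counts per 1000000 mapped fragments of the library, these are 8.02, 9.35 and 20.4 in the controls and 4.63, 11.9 and 5.72 in the knockdown libraries. The depth used for this scaling was recovered from the isoform table, and no transcript shared by both tables could show that they count the same unit, so CPM levels of GSS are relative to that depth. The groups overlapped: control 3 was the highest library, and knockdown 2 exceeded controls 1 and 2. The means were 12.6 ± 6.78 and 7.43 ± 3.94 CPM (SD, n = 3 each). The log2 fold change was -0.77 ± 0.533 (SE; 95% interval -2.09 to 0.54; edgeR's quasi-likelihood test, adjusted p = 0.767) and the interval holds falls as well as rises. It was -0.33 without control 3 and -1.37 without knockdown 2. Each standard error given with edgeR is the absolute log2 fold change over the square root of the test's F statistic. Intervals built from it are approximate.

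GSS-222 had 10, 63 and 111 counts in the controls and 8, 431 and 51 in the knockdown libraries. In CPM it stood at 0.172, 1.07 and 1.61 in the controls and at 0.151, 5.35 and 0.693 in the knockdown libraries. Knockdown 2 stood far above the other 5 libraries, and the remaining knockdown libraries lay within the range of the controls or below it. The log2 fold change was 1.17 ± 1.41 (SE; 95% interval -2.31 to 4.65; edgeR's quasi-likelihood test, adjusted p = 0.903). It turned to -1.18 without knockdown 2.

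Of the counts on both GSS transcripts, GSS-222 took 2.10% in control 1 (95% Wilson interval 1.15 to 3.82), 10.3% in control 2 (8.14 to 13.0) and 7.32% in control 3 (6.11 to 8.74). In the knockdown libraries it took 3.15% in knockdown 1 (1.60 to 6.09), 30.9% in knockdown 2 (28.6 to 33.4) and 10.8% in knockdown 3 (8.31 to 13.9). The intervals treat each count as an independently observed read, so error in assigning shared reads is not covered. Those of control 1 and control 2 do not overlap, but whether this exceeds assignment error was not tested. The mean share of GSS-222 came to 6.58 ± 4.15% in the controls and 15.0 ± 14.4% in the knockdown (SD, n = 3 each; exact two-sided permutation p = 0.4). Without knockdown 2 the difference between the groups shrank from 8.39 to 0.401 percentage points.

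Per kilobase of transcript GSS-204 exceeded GSS-222 in all 6 libraries. The ratio of GSS-204 to GSS-222 per kilobase ran from 12.3 to 66.0 in the controls and from 3.16 to 43.6 in the knockdown libraries. GSS-204 stood at 5.91 ± 3.18 and 3.49 ± 1.85 CPM per kilobase in control and knockdown, and GSS-222 at 0.315 ± 0.241 and 0.684 ± 0.947 (SD, n = 3 each). Their sum was 13.5 ± 7.40 CPM in the controls and 9.49 ± 6.80 CPM in the knockdown (exact two-sided permutation p = 0.5); the difference of -4.04 CPM became 0.185 CPM without control 3.

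**Figure D5:**
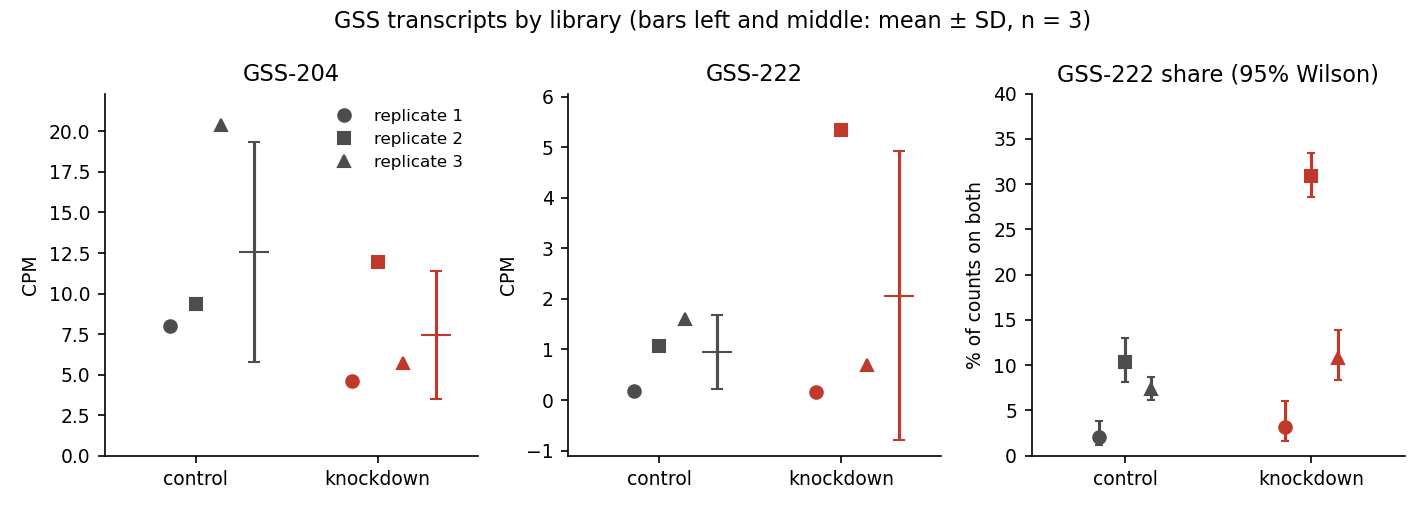
GSS-204 and GSS-222 in CPM (left and middle; bars give mean and SD of 3 libraries) and the share of GSS-222 among counts on both (right, in percent with 95% Wilson intervals), by library. Control 3 is highest for GSS-204 at 20.4 CPM and knockdown 2 for GSS-222 at 5.35 CPM, and the groups overlap in all panels.

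In the transcript count table edgeR called 0 of 27 tested transcripts (0%), with 1 at an unadjusted p under 0.05. With DESeq2 there was 1 call, which was no GSS transcript, and 3 unadjusted p-values under 0.05. With limma-voom there were 0 calls and 5 such p-values. The standard errors of the log2 fold changes had a median of 0.771 there, against 0.0777 in the gene FPKM table. The first come from edgeR on counts and the second from limma on log2(FPKM + 1), so they are not on the same scale. A change of the size seen for GCLC lies within the 95% intervals of both GSS transcripts and was not detectable in them.

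The wider pathway was hardly covered: of 104 genes in 8 lists on glutathione synthesis, breakdown and use, cystine and amino acid supply, arginine use, the NRF2 pathway and the amino acid response, 5 were among the analysed features, namely the 4 genes above and GPX4. GPX4 uses glutathione to reduce lipid peroxides in membranes. Its protein-coding transcript ENST00000593032 had 28, 20 and 47 counts in the controls and 39, 21 and 31 in the knockdown libraries, and these overlap (log2 fold change -0.20 ± 0.572, SE; edgeR's quasi-likelihood test, adjusted p = 0.903). GCLM, the modifier subunit of the ligase, and the cystine carrier SLC7A11 were not analysed here. On the arginine and proline map, which the authors' deposited table gives to LAP3, the other gene was AOC1, a diamine oxidase named after its values were seen, with 4 counts in control 3 and 0 in the other libraries.

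Across the 6 libraries, the tested genes whose log2(FPKM + 1) values ran most like those of GCLC were POLDIP2 (Pearson r = 0.980), ST7 (0.978) and LAP3 (0.972). For LAP3 they were GCLC (0.972), ST7 (0.968) and HCCS (0.963). For SLC7A2 they were KLHL13 (0.977), RPAP3 (0.922) and CDC27 (0.873), while its r was 0.632 with GCLC and 0.532 with LAP3. KLHL13 varied far less in size, from 2.29 FPKM in control 2 to 2.65 FPKM in knockdown 2. For GSS-204 in log2(CPM + 1) the closest of the tested transcripts were those of PJVK (0.808), MMS22L (0.786) and ARHGAP33 (0.745). For GSS-222 they were MMS22L (0.779), ARHGAP33 (0.743) and GSS-204 (0.619). These are descriptions over 6 libraries that share the split into groups.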

How the data were processed

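The authors deposited FPKM values and counts per gene and per isoform, and counts per transcript, per the file headers; cutadapt, HISAT2 and StringTie and the build hg18 are named in the submitters' processing notes, without versions. The coordinates in the gene table lie at the members' places in GENCODE 29 on GRCh38, which was used for annotation; it held 88 of the 99 transcripts. Depth is the median of count over FPKM and length, for isoforms with at least 1000 counts. Features with 0 counts are listed at 0.0001 FPKM.

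FPKM was tested as log2(FPKM + 1) with limma 3.58.1 (trend; mean of at least 1 FPKM), transcript counts with edgeR 4.0.16 (quasi-likelihood, recovered depth, TMM, filterByExpr), in R 4.3.3. A call is an adjusted p under 0.05 (Benjamini-Hochberg, over all tested rows of a table); single values had exact permutation tests (scipy 1.17.1). Alternatives included DESeq2 1.42.0. Fits were also run on simulated data with a fixed spread for each table, and no statement here rests on that run. Chi-square per degree of freedom between replicates was 30.9 to 79.9, so no library was a repeat. The members, lists and tests were chosen with earlier results of these data known. The text names all members, list genes found and, per member, the 3 features most correlated with it.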

Additional observations from a re-analysis of the deposited data

How the results depend on the processing

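GCLC kept its call in all 13 alternatives (log2 fold change 0.32 to 0.46). LAP3 was not called with quantile normalization (0.098; the cause was not tested), and leaving out single libraries gave 0.26 to 0.34. SLC7A2 was called with median centring (1.01) and without control 1 or control 2; leaving out single libraries gave 0.52 to 1.25. The number of called genes ran from 13 (without knockdown 1) to 25 (without control 3) when single libraries were left out, with 14 without knockdown 3. Of the called genes 63.6% rose, against 76.7% with median centring, 50% with quantile normalization, 57.1% with edgeR and 47.4% with DESeq2.

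In the transcript count table DESeq2 called 1 transcript, and leaving out single libraries gave 0 to 1 (1 without knockdown 2 or knockdown 3). Leaving out single libraries moved GSS-204 between -1.37 and -0.33 and GSS-222 between -1.18 (without knockdown 2) and 1.70. It moved the summed GSS difference between -7.94 and 0.185 CPM (without control 3) and the share on GSS-204 between -14.3 and -0.401 percentage points. With all libraries, GSS-222 fell to 0.56 with upper-quartile factors, 0.26 with limma-voom and 0.18 with the replicate block. It was 1.12 to 1.19 with library size only, DESeq2 or no low-count filter. GSS-204 was -1.16 with upper-quartile factors and -0.86 to -0.73 in the other settings with all libraries.

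Same-numbered libraries had correlations of deviations of -0.120, -0.116 and -0.125, within the range of differently numbered libraries (-0.168 to 0.291). The values thus give no sign of pairing by number, and a shared batch was not tested. With the replicate block 17 genes were called, GCLC (0.38, adjusted p = 0.0325 by limma) and LAP3 (0.29) among them, and no transcript.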

Other observations

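The gene with the highest coefficient of variation in the controls, ahead of SLC7A2, was CYP26B1, an enzyme that breaks down retinoic acid, at 108%. It also set control 2 apart, in the other direction: it stood at 0.488, 3.83 and 0.810 FPKM in controls 1 to 3, where SLC7A2 stood at 4.40, 0.954 and 2.93 FPKM. Both genes were chosen after their values were seen, and no test was made.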
